A study of Mus musculus with 2 samples.

Results

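The genes described here are the mouse zinc finger genes with high serial numbers: those whose array annotation gives a single symbol made of Zfp and a 3-digit number of 700 or more, with Zfp386 added. The rule is stated in names alone and found 97 genes with 171 probe sets, among 18193 named genes on the array. It was chosen with earlier results of these data known, so the set is not blind to its values. The study set cerebral cortex of mice titled as Gnmt knockouts against cortex of wild-type mice, to ask which transcripts differ when the enzyme glycine N-methyltransferase is missing. Each of the 2 Affymetrix arrays received RNA pooled from 3 males aged 4 weeks on a 129/B6 background. The sample titled KO carries a genotype entry that reads wild-type, so it is called the knockout-labelled pool here. With 1 array per group no difference could be tested, replicate error is unknown, and all values describe these 2 pools of 3 mice.

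Zfp proteins of this kind carry an array of C2H2 zinc fingers that reads DNA sequence, and most of them, though not all, begin with a Krüppel-associated box (KRAB). The KRAB domain recruits the corepressor TRIM28, which gathers the histone methyltransferase SETDB1 and heterochromatin proteins and silences the bound site, often a transposable element. Many of these genes are found in rodents alone and stand in tandem clusters of recent duplicates, whose transcripts can be alike enough to share array probes. They are transcription factor genes, most of them with low transcript levels in adult tissue.

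Facts of the whole series frame every value below. The median signal was 124.9 units in the knockout-labelled pool and 92.0 units in the wild-type pool, and both arrays had the same trimmed mean of 500.0 units. All 7 cortical excitatory neuron markers on the array were measured in both pools, at 616.7 units or more in the knockout-labelled pool and 808.7 units or more in the wild-type pool, with 1 lower and 2 higher by 1.5-fold or more in the knockout-labelled pool. By the same limit 4 of 6 astrocyte markers (Gfap, Aqp4, S100b and Slc1a3) were lower and 0 higher, and 4 of 6 microglial markers (C1qa, Fcrls, P2ry12 and Tmem119) were lower and 1, Cx3cr1, higher. Summed astrocyte signals were 35464.9 units in the knockout-labelled pool and 39932.8 units in the wild-type pool, and summed microglial signals were 9403.7 and 10241.8 units in those pools. Most of each sum came from 1 gene that was not lower. Slc1a2 gave 26501.5 units in the knockout-labelled pool and 23617.1 units in the wild-type pool, and Csf1r gave 7830.1 and 6389.8 units. The sums therefore hide much of the difference in the other markers. The summed signal of 4 pituitary hormone genes was 610.5 units in the knockout-labelled pool and 31061.7 units in the wild-type pool. Xist, the RNA of the inactive X chromosome, gave 2560.3 units in the knockout-labelled pool and 49.6 units in the wild-type pool, although both pools are labelled male. The Y-linked genes Eif2s3y, Kdm5d and Uty were measured in both: knockout-labelled cortex gave 989.0, 198.9 and 161.4 units for them and wild-type cortex 879.8, 355.4 and 186.7 units. Gnmt gave 21.5 units in the knockout-labelled pool and 10 units in the wild-type pool, both below the floor of 64.2 units used here, so it could not check the labels. The part of these differences in the Zfp values was not tested, nor can it be told apart from genotype with 1 pool per group.

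The promoters of 4 genes are shown first, because these genes neighbour each other on chromosome 17, were all lower in the knockout-labelled pool, and are arranged as head-to-head pairs. RefSeq places the start of Zfp942 95 bases from that of Zfp943 on the opposite strand, and the start of Zfp944 63 bases from that of Zfp758, in GRCm38.p6. These were the only pairs within 300 bases in which both genes carried the numbers studied. The stretches between the starts, both on the plus strand, are as follows, with the longest run of bases they share in capitals.
Zfp942 and Zfp943, chr17:21962465-21962558: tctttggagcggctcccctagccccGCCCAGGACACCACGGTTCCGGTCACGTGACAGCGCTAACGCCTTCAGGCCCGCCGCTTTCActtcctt
Zfp944 and Zfp758, chr17:22361401-22361462: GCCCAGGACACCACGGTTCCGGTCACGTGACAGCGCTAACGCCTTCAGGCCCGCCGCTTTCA
All 62 bases between Zfp944 and Zfp758 recur without a mismatch between Zfp942 and Zfp943, and the promoter windows of the other genes studied do not hold this run. The run contains 1 E-box, CACGTG. Over the 250 bases before the start, Zfp758 and Zfp943 were 96.8% identical and Zfp942 and Zfp944 89.6%. The median over the 66 pairs that 12 neighbouring Zfp genes of chromosome 17 can form was 58.8%, against 58.4% for 703 pairs of studied genes that belong to no group of 3 or more neighbours.

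The 250 bases before the start are given next for 4 further genes that were much lower in the knockout-labelled pool, Zfp386, Zfp931, Zfp932 and Zfp994, the last also from the chromosome 17 group. Each is written along its gene's own strand, from RefSeq in GRCm38.p6. Capitals mark matches on either strand to CCAAT, to the GC box GGGCGG or to the E-box CACGTG, some of which overlap. The TATA box TATAAA and the ETS site CCGGAAG, also searched on both strands, have no match in them.
Zfp386, chr12:116047474-116047723, plus strand: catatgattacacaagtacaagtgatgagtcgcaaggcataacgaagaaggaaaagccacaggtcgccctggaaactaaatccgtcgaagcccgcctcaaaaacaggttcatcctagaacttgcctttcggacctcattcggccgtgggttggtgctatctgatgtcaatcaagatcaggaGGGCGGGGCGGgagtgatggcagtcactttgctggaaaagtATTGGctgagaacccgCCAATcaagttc
Zfp931, chr2:178078426-178078675, minus strand: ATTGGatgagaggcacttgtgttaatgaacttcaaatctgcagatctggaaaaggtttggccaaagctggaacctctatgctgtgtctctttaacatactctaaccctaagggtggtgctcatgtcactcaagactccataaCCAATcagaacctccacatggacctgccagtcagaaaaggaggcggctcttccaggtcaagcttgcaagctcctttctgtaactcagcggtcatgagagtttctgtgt
Zfp932, chr5:109996260-109996509, plus strand: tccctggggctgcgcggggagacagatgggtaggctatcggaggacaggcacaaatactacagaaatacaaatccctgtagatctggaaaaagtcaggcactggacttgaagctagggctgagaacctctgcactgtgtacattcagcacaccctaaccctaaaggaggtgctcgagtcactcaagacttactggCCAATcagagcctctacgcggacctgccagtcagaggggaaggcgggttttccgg
Zfp994, chr17:22225615-22225864, minus strand: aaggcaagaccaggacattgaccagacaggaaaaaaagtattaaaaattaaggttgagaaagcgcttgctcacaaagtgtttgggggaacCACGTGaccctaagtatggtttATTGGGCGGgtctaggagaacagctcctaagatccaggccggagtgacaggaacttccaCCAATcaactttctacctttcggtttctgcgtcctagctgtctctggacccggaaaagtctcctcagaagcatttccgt
Each of the 4 holds at least 1 CCAAT. Among the 87 genes studied that have a promoter entry, 53 (60.9%) hold CCAAT in these 250 bases, against 37.5% of the 27025 genes of the promoter table. The shares were 42.5% and 35.4% for the GC box, 6.90% and 14.3% for TATAAA, 10.3% and 7.83% for the ETS site, and 11.5% and 6.86% for the E-box. The next counts cover genes with an entry that were measured, that is, at or above the floor in both pools. CCAAT was present in 16 of the 24 that were lower by 1.5-fold or more in the knockout-labelled pool. It was present in 21 of the 36 other measured ones. Zfp386, Zfp994, Zfp944 and Zfp758, below the floor in the knockout-labelled pool, are in neither count. The median number of CpG sites was 10 in the lower genes and 10.5 in the other measured ones, against 6 over all genes. These are matches of letters in a window and not tested binding sites.

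More of the high-numbered Zfp genes were lower than higher in the knockout-labelled pool. Of the 97, 66 were measured, meaning that the brightest probe set reached the floor on both arrays, and 26 of these 66 (39.4%) were lower by 1.5-fold or more while 4 (6.06%) were higher by 1.5-fold or more. Counts of lower and higher genes below use this limit, with knockout-labelled set over wild-type. Over all 12244 measured genes the shares were 18.2% lower and 12.5% higher. At 2-fold the counts were 15 lower and 1 higher, against 6.75% and 3.47% of all measured genes. Their median log2 ratio (knockout-labelled to wild-type) was -0.42, with quartiles of -0.91 and 0.10, and over all measured genes it was -0.06. A ratio was below 0 for 46 of the 66 genes and above 0 for 20. Over all 12244 measured genes, 6629 were below 0 and 5615 above.

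The count depended on the floor that a gene had to reach in both pools. With the floor at the 60th percentile of signals, 31 genes were measured, of which 7 counted as lower and 4 as higher, and the median was -0.14. Over all genes at that floor, 15.2% were lower and 13.0% higher. Because both pools had to reach it, this floor also removed genes for a low knockout-labelled signal alone. Zfp931, Zfp942, Zfp943 and Zfp946, all much lower in that pool, were left out. Zfp800 and Zfp939, which counted as higher at the main floor, were left out too, so the 4 higher genes are not the same 4. The part of brightness in the change was not tested. Among the 66 genes, 11 of the brighter 33 and 15 of the dimmer 33 counted as lower, with medians of -0.21 and -0.52. The probe set error, an SD of 0.58 on the log2 scale (1.49-fold) taken from paired probe sets of 5375 genes, is about as large as the 1.5-fold limit.

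**Figure D1:**
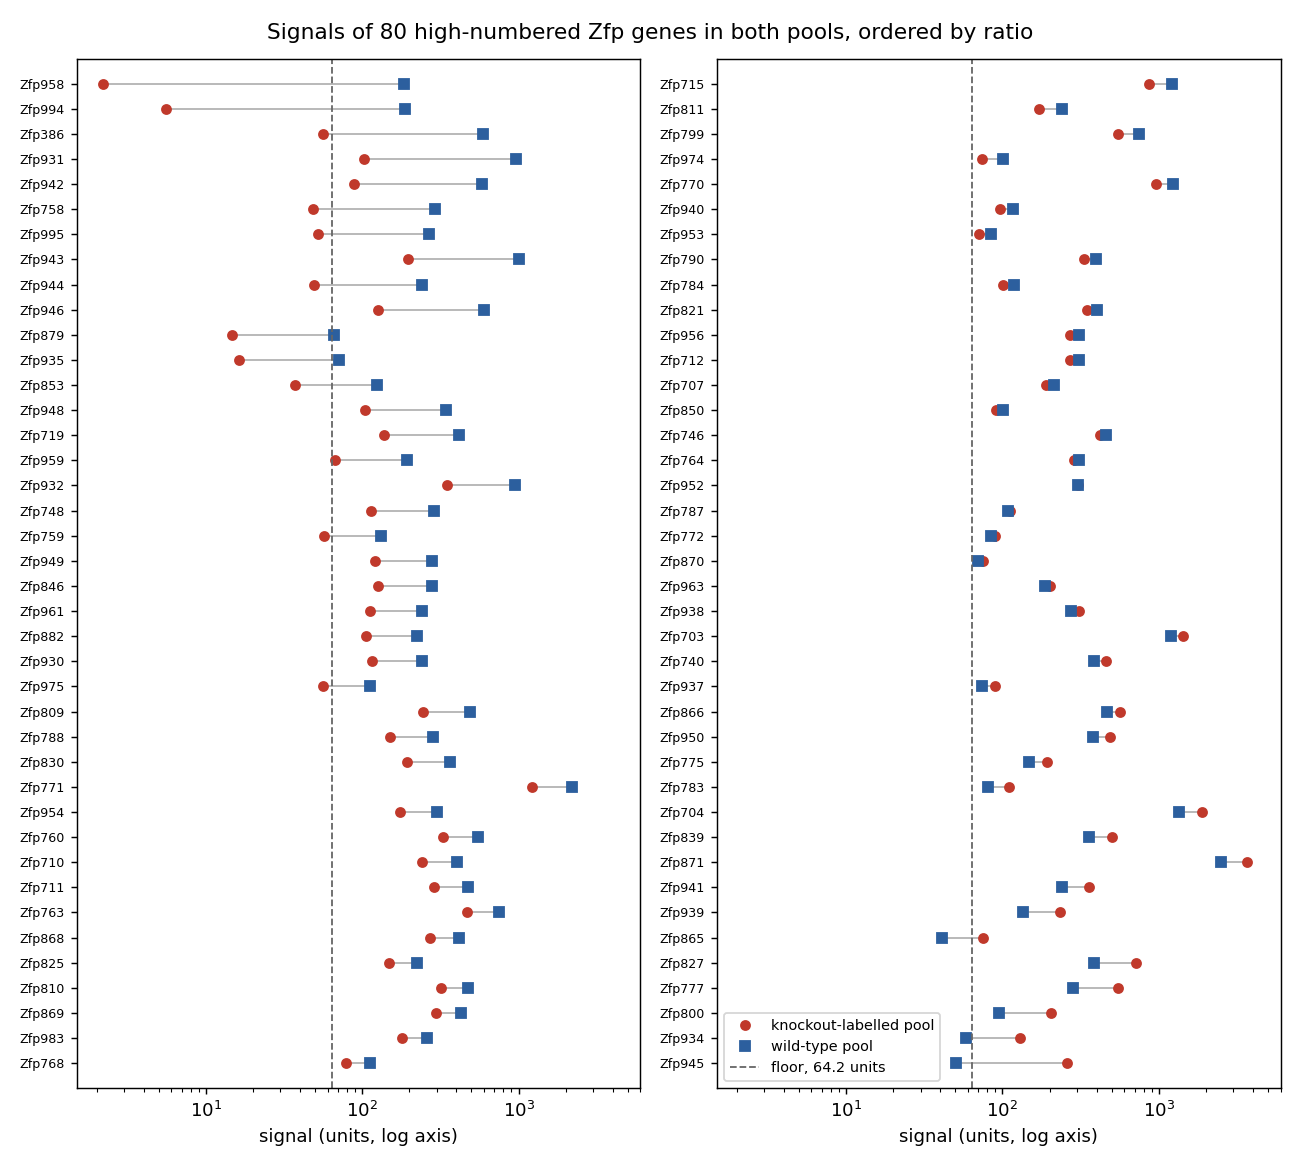
Signal of each of 80 high-numbered Zfp genes above the floor in at least 1 pool, by its brightest probe set, in units on a log axis. Circles are the knockout-labelled pool, squares the wild-type pool, with 1 array each and so no error bars; genes run from the lowest ratio of the knockout-labelled to the wild-type pool at the top left to the highest at the bottom right, and the dashed line is the floor of 64.2 units.

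**Figure D2:**
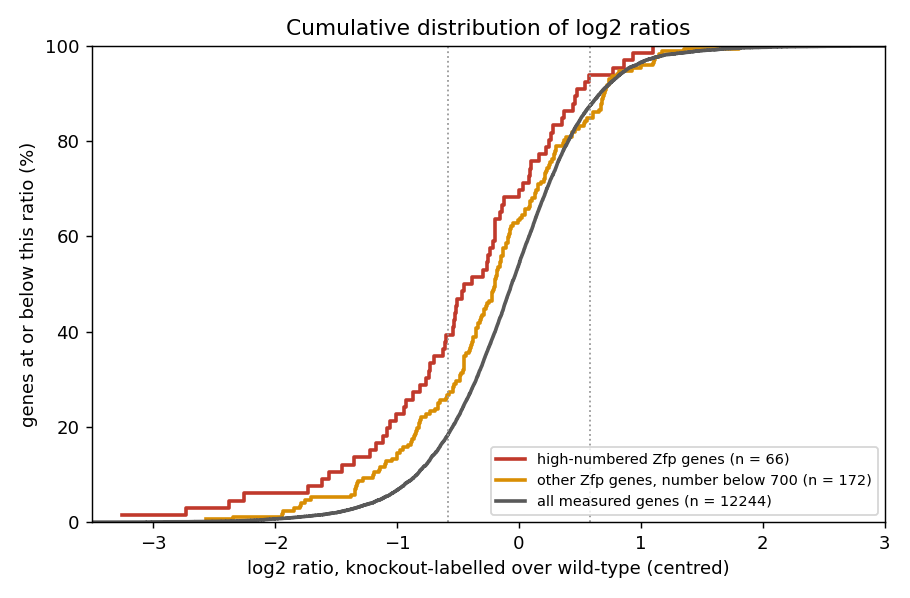
Cumulative share of genes (%) at or below each centred log2 ratio, knockout-labelled to wild-type, for 66 measured high-numbered Zfp genes, 172 Zfp genes numbered below 700 and all 12244 measured genes; dotted lines mark 1.5-fold and the axis leaves out the tails of all genes. The high-numbered Zfp curve lies left of the others over most of the range, with medians of -0.42, -0.20 and -0.06.

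Many low values came in a row of neighbouring genes on chromosome 17. Genes were grouped as neighbours when the next studied gene on the chromosome began less than 1 Mb further on and at least 3 stood together, a rule set after the values had been seen, so the grouping is a description. In RefSeq order the first chromosome 17 group is Zfp948, Zfp983, Zfp760, Zfp820, Zfp995, Zfp942, Zfp943, Zfp994, Zfp944, Zfp758, Zfp946 and Zfp945. Of these 12, 6 were measured and all 6 had ratios below 0, 5 of them at least 1.5-fold. A further 4 passed the floor only in wild-type cortex, 1 only in knockout-labelled cortex and 1 in neither.

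Zfp942 had 88.0 units in the knockout-labelled pool and 580.4 units in the wild-type pool, 6.65-fold lower. Its head-to-head partner Zfp943 had 196.0 units in the knockout-labelled pool and 1012.4 units in the wild-type pool, 5.21-fold lower. Both genes of this pair were lower in the knockout-labelled pool. In the other pair, Zfp944 gave 48.9 units in the knockout-labelled pool and 241.6 units in the wild-type pool, at least 3.79-fold lower. Zfp758 gave 48.4 units in the knockout-labelled pool and 290.1 units in the wild-type pool, at least 4.56-fold lower. "At least" here compares the wild-type signal with the floor, since the knockout-labelled signal lay below it. A dimmer probe set of Zfp944 gave 65.8 and 95.2 units in the knockout-labelled and wild-type pools, a log2 ratio of -0.54.

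Elsewhere in the same row, Zfp946 had 126.7 units in the knockout-labelled pool and 599.8 units in the wild-type pool, 4.77-fold lower. Zfp948 had 104.3 units in the knockout-labelled pool and 343.5 units in the wild-type pool, 3.32-fold lower. Zfp995 had 52.0 units in the knockout-labelled pool and 268.6 units in the wild-type pool, at least 4.22-fold lower. That value comes from a probe set of a type (suffix x) that can bind several transcripts. The second probe set of Zfp995 has no suffix and showed the same order of the pools. It gave 26.5 units in the knockout-labelled pool and 231.3 units in the wild-type pool. Zfp994 gave 5.6 units in the knockout-labelled pool and 188.7 units in the wild-type pool, at least 2.96-fold lower.

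The row was not uniform. Zfp760 was 1.70-fold lower, with 327.4 units in the knockout-labelled pool and 552.0 units in the wild-type pool. Zfp983, between Zfp948 and Zfp760, had 180.2 units in the knockout-labelled pool and 259.0 units in the wild-type pool by its brightest probe set, short of 1.5-fold. Its other measured probe sets had log2 ratios of -0.15 and 1.77. Zfp945, at the far end, went the other way, with 260.2 units in the knockout-labelled pool and 50.3 units in the wild-type pool, at least 4.02-fold higher. Its other probe sets disagreed with that, giving 71.2 and 120.4 units in one case and 35.9 and 77.8 units in the other, in the knockout-labelled and wild-type pools. Zfp820 was below the floor in both.

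Elsewhere on chromosome 17 the share of lower genes was near that of the whole array. The array carries 2 other named genes within the row, Zfp229 and Gm16386, and neither was measured in both pools. Of 52 measured genes before the row, 10 counted as lower and 7 as higher, and the median was 0.01. Between the row and Gnmt, which lies on the same chromosome, 65 of 324 measured genes counted as lower and 41 as higher, and the median was -0.09. These shares, 19.2% and 20.1% lower, are close to the 18.2% of all measured genes. A second group of neighbours in that interval, Zfp871, Zfp811, Zfp799, Zfp870, Zfp952 and Zfp763, held 1 lower and 0 higher among 6, and its median was -0.23. Zfp959, beyond Gnmt, had 66.7 units in the knockout-labelled pool and 194.2 units in the wild-type pool, 2.94-fold lower. Lower values were also found off this row: without it, 21 of 60 (35.0%) counted as lower and 4 as higher, and the median was -0.26.

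**Figure D3:**
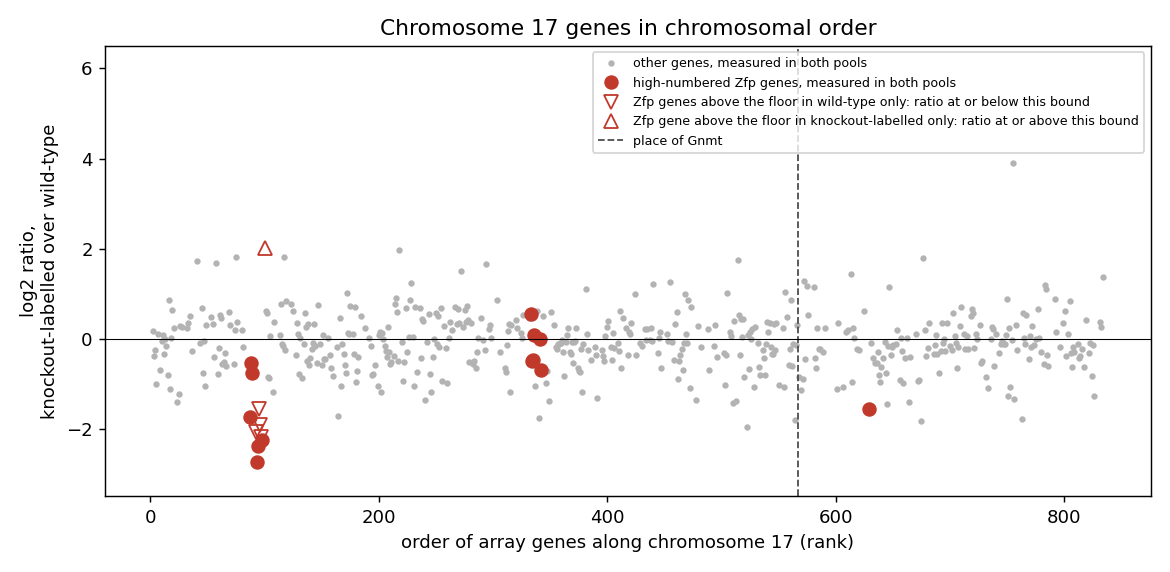
Log2 ratio (knockout-labelled to wild-type) for genes of chromosome 17, in chromosomal order (rank among array genes). Filled circles are high-numbered Zfp genes measured in both pools, open triangles are bounds for those above the floor in 1 pool, grey points are other genes and the dashed line is the place of Gnmt. A column of Zfp genes at the left reaches down to -2.73, and the surrounding grey points centre near 0.

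Outside chromosome 17, Zfp931, Zfp386 and Zfp958 were among the genes with large differences. Zfp386, a KRAB zinc finger gene of chromosome 12, had 56.4 units in the knockout-labelled pool and 594.9 units in the wild-type pool, at least 9.34-fold lower. Its second probe set gave 47.2 units in the knockout-labelled pool and 421.7 units in the wild-type pool. Zfp931, on chromosome 2, had 102.5 units in the knockout-labelled pool and 969.8 units in the wild-type pool, 9.54-fold lower. That value rests on a single probe set of a type (suffix x) that can bind several transcripts. Zfp958, on chromosome 8, gave 2.2 units in the knockout-labelled pool and 183.9 units in the wild-type pool, at least 2.89-fold lower.

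Among the lower genes, Zfp932 and Zfp809 are known repressors of retroviral elements. Zfp932, which with a paralog silences endogenous retroviruses in mouse embryonic stem cells, had 349.8 units in the knockout-labelled pool and 950.2 units in the wild-type pool, 2.74-fold lower. Zfp809, which recognises the primer binding site of murine retroviruses and brings TRIM28 to integrated proviruses, had 245.4 units in the knockout-labelled pool and 488.2 units in the wild-type pool, 2.01-fold lower. Each is represented by its only probe set. Zfp719 had 137.4 units in the knockout-labelled pool and 416.5 units in the wild-type pool, 3.06-fold lower, but its other probe set lay at 0.40 on the log2 scale.

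The other genes between 2-fold and 3-fold lower were Zfp748, Zfp949, Zfp846, Zfp961, Zfp882 and Zfp930, with log2 ratios from -1.36 to -1.06. Zfp930 had 116.1 units in the knockout-labelled pool and 239.9 units in the wild-type pool, and both of its probe sets were lower, at -1.06 and -1.23. Zfp949 was less even, with probe sets at -1.22 and -0.30. Between 1.5-fold and 2-fold lower lay Zfp788, Zfp830, Zfp771, Zfp954, Zfp760, Zfp710, Zfp711, Zfp763, Zfp868, Zfp825 and Zfp810. Zfp830, needed for growth of the early mouse embryo, had 192.5 units in the knockout-labelled pool and 363.4 units in the wild-type pool, while its other measured probe set was level at 0.03. Zfp711, an X-linked gene whose human counterpart is mutated in intellectual disability, had 288.9 units in the knockout-labelled pool and 476.0 units in the wild-type pool, 1.66-fold lower. Zfp771 was 1.83-fold lower, and its 3 measured probe sets lay between -0.89 and -0.78. All 3 carry a suffix, x for the brightest, so they may not be independent. A dimmer probe set of Zfp771 without a suffix gave 64.4 units in the knockout-labelled pool and 34.1 units in the wild-type pool, opposite to that ratio. The brightest probe set of Zfp825 also carries the suffix x, and its other measured probe set, without a suffix, lay at -1.01.

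The limit of 1.5-fold cut through a continuous range. Just past it stood Zfp810, Zfp825 and Zfp868, at 1.51-fold, 1.53-fold and 1.54-fold lower. Just short of it stood Zfp869, Zfp983 and Zfp768, at 1.46-fold, 1.45-fold and 1.44-fold lower. On the other side Zfp941, Zfp871 and Zfp839 fell short at 1.49-fold, 1.45-fold and 1.39-fold higher.

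By their brightest probe sets, 4 measured genes counted as higher: Zfp939, Zfp827, Zfp777 and Zfp800. Zfp777 had 549.1 units in the knockout-labelled pool and 284.3 units in the wild-type pool, 1.92-fold higher. Zfp827, whose human counterpart brings the NuRD chromatin complex to telomeres, had 711.2 units in the knockout-labelled pool and 387.4 units in the wild-type pool, 1.82-fold higher, with its other probe set at 0.35. Zfp939 had 232.7 units in the knockout-labelled pool and 135.2 units in the wild-type pool, 1.71-fold higher, from a single probe set that gave a log2 ratio of 0.45 under quantile normalization, below 1.5-fold. Zfp800 had 205.9 units in the knockout-labelled pool and 95.1 units in the wild-type pool, 2.15-fold higher, but its second measured probe set gave 68.3 units in that pool and 138.3 units in the wild-type pool, a log2 ratio of -1.03.

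Zfp871 and Zfp704 were higher in every measured probe set, although their brightest ones fell short of 1.5-fold. The 3 probe sets of Zfp871 gave 3651.8, 2665.6 and 2011.6 units in the knockout-labelled pool, against 2492.1, 428.8 and 66.1 units in the wild-type pool. Their log2 ratios were 0.54, 2.62 and 4.92, a spread over probe sets of 1 gene of 4.38. The 2 probe sets of Zfp704 gave 1875.8 and 1064.6 units in the knockout-labelled pool, against 1351.2 and 204.4 units in the wild-type pool, with log2 ratios of 0.46 and 2.37. Which transcript forms these probe sets detect was not examined.

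Probe sets of the same gene often disagreed. Of 16 genes with at least 2 measured probe sets, 10 had a single sign and 6 had both. Those with a single sign were Zfp704, Zfp707, Zfp771, Zfp790, Zfp825, Zfp827, Zfp871, Zfp930, Zfp941 and Zfp949. Those with both were Zfp719, Zfp788, Zfp800, Zfp830, Zfp950 and Zfp983. Zfp950 for example had log2 ratios of 0.36 and -1.23. Probe set error within these 16 genes had an SD of 0.86, larger than the 0.58 over 5375 genes. The remaining 50 measured genes each rest on 1 probe set measured in both pools. For 6 of them another probe set passed the floor in 1 pool, on the same side as the printed ratio for Zfp703, Zfp783, Zfp811 and Zfp846 and on the opposite side for Zfp882 and Zfp961. Taking all 87 measured probe sets singly, 33 counted as lower and 8 as higher, and the median was -0.30. Over all 23928 measured probe sets the shares were 17.4% lower and 19.0% higher.

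**Figure D4:**
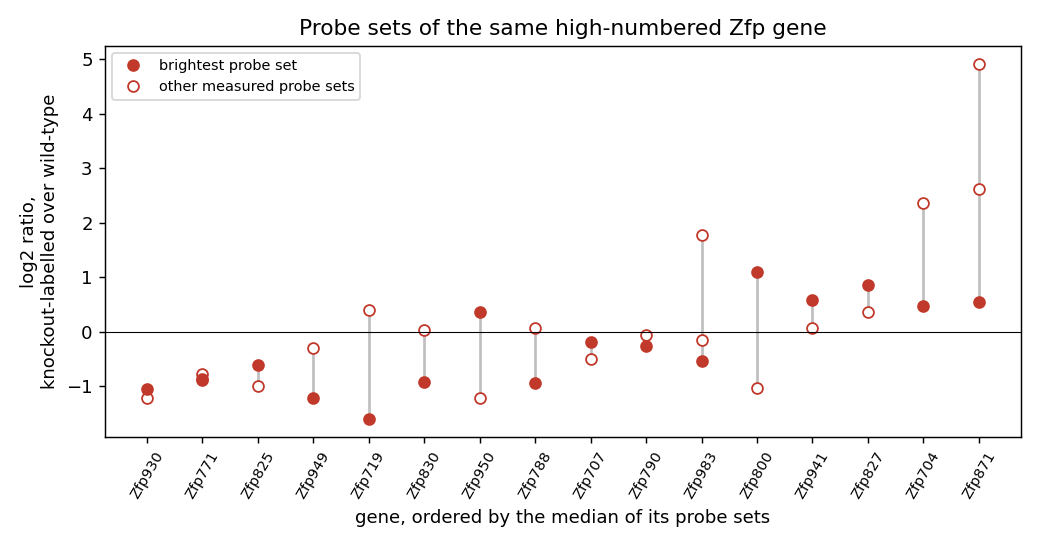
Log2 ratio (knockout-labelled to wild-type) for each measured probe set of the 16 high-numbered Zfp genes that have at least 2, with the brightest probe set filled and genes ordered by their median. Zfp930, Zfp771 and Zfp825 lie below 0 with little spread, and Zfp871 spans from 0.54 to 4.92.

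Among the 66 measured genes, 36 lay within 1.5-fold. They included Zfp746, the PARIS repressor that is a target of the ubiquitin ligase parkin, with 419.6 units in the knockout-labelled pool and 458.4 units in the wild-type pool. Zfp703, a corepressor of the NET family without a KRAB domain, had 1419.8 units in the knockout-labelled pool and 1204.8 units in the wild-type pool. Also within 1.5-fold and among the 10 probe sets of highest mean signal were Zfp715, Zfp770 and Zfp799, with log2 ratios of -0.52, -0.38 and -0.47. The closest to 0 was Zfp952, with 304.8 units in the knockout-labelled pool and 302.3 units in the wild-type pool. The others were Zfp707, Zfp712, Zfp740, Zfp764, Zfp768, Zfp772, Zfp775, Zfp783, Zfp784, Zfp787, Zfp790, Zfp811, Zfp821, Zfp839, Zfp850, Zfp866, Zfp869, Zfp870, Zfp937, Zfp938, Zfp940, Zfp950, Zfp953, Zfp956, Zfp963, Zfp974, Zfp983, Zfp941, Zfp704 and Zfp871, between -0.54 and 0.58.

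Other groups of neighbours had medians between -1.10 and 0.37. On chromosome 6, Zfp783, Zfp956, Zfp777, Zfp746 and Zfp775 held 0 lower and 1 higher among 5, and their median was 0.37. On chromosome 8, Zfp930, Zfp868, Zfp869, Zfp963 and Zfp866 had a median of -0.54 and ratios that ran in RefSeq order from -1.06 through -0.62, -0.54 and 0.10 to 0.28. A second chromosome 8 group held Zfp882 and Zfp961, at -1.09 and -1.12, beside Zfp709, which was below the floor. A dimmer probe set of Zfp882 gave 112.5 units in the knockout-labelled pool and 22.8 units in the wild-type pool, opposite to that ratio. One of Zfp961 gave 95.8 units in the knockout-labelled pool and 40.9 units in the wild-type pool, also opposite. The chromosome 13 group of Zfp712, Zfp708, Zfp759, Zfp953 and Zfp748 had 3 measured genes, all below 0, with a median of -0.26. On chromosome 7, Zfp715 and Zfp719 were both below 0 in a group with Zfp975, Zfp936 and Zfp819, and Zfp771, Zfp768 and Zfp764 were all below 0 at -0.87, -0.52 and -0.12. The remaining chromosome 7 group had Zfp787, Zfp954 and Zfp772 at 0.04, -0.81 and 0.08, and Zfp773 below the floor. Of the chromosome 4 group, Zfp991, Zfp982 and Zfp979 were below the floor in both pools by their brightest probe sets.

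**Figure D5:**
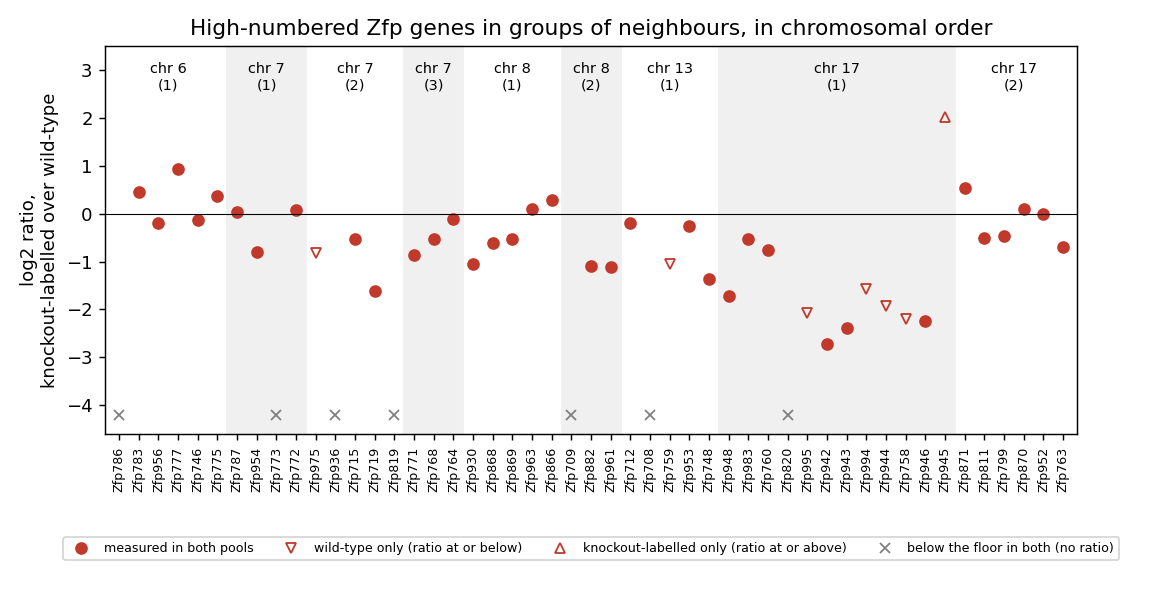
Log2 ratio (knockout-labelled to wild-type) for high-numbered Zfp genes in groups of neighbours, each group in chromosomal order and headed by its chromosome and the number of the group on it; the chromosome 4 group is left out. Filled circles were measured in both pools, open triangles are bounds, and crosses mark genes below the floor in both; the first chromosome 17 group reaches the lowest values.

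Of the 97 genes, 3 passed the floor only in the knockout-labelled pool and 11 only in the wild-type pool. Over all 18193 named genes these counts were 763 and 659. The bound reached 1.5-fold for 2 of the 3 and for 9 of the 11, including Zfp386, which was added to the set by name. Over all named genes, the bound reached 1.5-fold for 32.8% of the 763 seen only in knockout-labelled cortex and for 31.7% of the 659 seen only in wild-type cortex. Beside those described above, Zfp759, Zfp853 and Zfp975 were at least 2.09-fold, 1.96-fold and 1.77-fold lower, while Zfp879 and Zfp935 exceeded the floor only slightly in the wild-type pool. The values of Zfp975 and Zfp935 come from probe sets with the suffix x. Zfp934 gave 129.3 units in the knockout-labelled pool and 58.6 units in the wild-type pool, at least 2.0-fold higher, and Zfp865 gave 74.6 units in the knockout-labelled pool and 41.1 units in the wild-type pool.

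A further 17 genes were below the floor in both pools, at 1.3 to 58.7 units in the knockout-labelled pool and 1.8 to 61.5 units in the wild-type pool, and no ratio is given for them. They were Zfp708, Zfp709, Zfp735, Zfp750 (a regulator of epidermal differentiation), Zfp773, Zfp786, Zfp819, Zfp820, Zfp867, Zfp873, Zfp936, Zfp957, Zfp972, Zfp979, Zfp980, Zfp982 and Zfp991. These signals are those of the brightest probe sets. A dimmer one of Zfp991 gave 4.0 units in the knockout-labelled pool and 117.7 units in the wild-type pool, and no other probe set of the 17 passed the floor in either pool. Over all 18193 named genes, 4527 were below the floor in both pools. A signal below the floor does not show that a transcript is absent.

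Zfp genes numbered below 700 had a share of lower genes and a median between those of the high-numbered genes and of all genes. Of 172 measured, 46 (26.7%) counted as lower and 26 (15.1%) as higher, and the median was -0.20. Values on either side of the number that divides the lists are given as a description: Zfp703, Zfp704 and Zfp707 had log2 ratios of 0.22, 0.46 and -0.19, and Zfp691, Zfp692 and Zfp697 had 0.46, -0.13 and 0.29.

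The corepressor machinery that KRAB zinc finger proteins use had shares near those of all measured genes. Of a list of 42 such genes, 38 were on the array and 33 were measured, of which 6 (18.2%) counted as lower and 4 (12.1%) as higher, and the median was 0.12. Trim28, the corepressor bound by the KRAB domain, had 4788.8 units in the knockout-labelled pool and 4616.7 units in the wild-type pool. Setdb1, the histone methyltransferase it recruits, had 902.3 units in the knockout-labelled pool and 718.9 units in the wild-type pool, 1.24-fold apart. The lowest members were Trim24, a relative of Trim28, at -0.94 with its other probe set at -0.16, Mphosph8 of the HUSH silencing complex at -0.76, and the NuRD helicase gene Chd3 at -0.74. Among those measured in both pools the highest were the DNA methyltransferase genes Dnmt3a and Dnmt3b at 1.26 and 0.83, and Atf7ip, the partner of SETDB1, at 0.66 with its other probe set at -0.62. Dnmt3b had 116.5 units in the knockout-labelled pool and 64.9 units in the wild-type pool, the latter just above the floor. Dnmt3a had 1899.2 units in the knockout-labelled pool and 785.4 units in the wild-type pool. By probe sets annotated with a single symbol, the histone H3.3 genes H3f3a and H3f3b passed the floor only in knockout-labelled cortex. Their bounds were 3.61-fold and 1.15-fold higher there. Probe sets with several symbols were left out, and whether those used detect the main H3.3 transcripts was not examined.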

How the data were processed

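Signals of 45101 probe sets per array, 64 of them controls, were analysed as the authors deposited them: linear intensities, scaled before deposit to a common trimmed mean. The Affymetrix program GCOS is named in the submitters' processing notes, without a version. Trizol was used for total RNA and the target was biotinylated, per the labels' protocols. Samples were grouped by title.

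Names came from the platform annotation, and 34741 of 34945 probe sets with 1 symbol matched RefSeq by gene identifier (932 had several symbols). The floor was set at the 40th percentile of non-control signals. Log2 ratios of knockout-labelled over wild-type were centred by subtracting their median over 23928 probe sets at or above the floor on both arrays, 0.01. A gene took its brightest probe set by mean log2 signal. Probe set error was the SD of the difference between the 2 brightest measured probe sets per gene over the square root of 2, and it leaves out the spread between mice. There are no p-values, because the number of arrays allows none. RefSeq (GRCm38.p6) gave gene order, promoters and strand, and 87 of the 97 genes had a promoter entry. Promoter identity came from global alignment.

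The genes and lists were chosen with earlier results of these data known. Named were all genes at least 1.5-fold apart, those with a bound of 1.5-fold, those with a second measured probe set, the 10 of highest mean signal and those next to the limits. Alternatives covered the floor, the scaling (none, quantile, or loess with a fraction of 0.3), the probe set and its suffix. Calculations were tested on simulated data. Python 3.11.15, numpy 2.4.6, pandas 2.3.3, statsmodels 0.14.6, biopython 1.88 and matplotlib 3.10.9 were used.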

Additional observations from a re-analysis of the deposited data

How the results depend on the processing

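The lower-than-higher balance of the 66 measured genes kept its direction under every alternative tried, and its size varied. The count at least 1.5-fold lower was 26; it was 7 of 31 with the floor at the 60th percentile, 52 of 97 with no floor (signals under 1 set to 1) and 5 of 16 by second brightest measured probe sets, against 15.2%, 27.2% and 19.1% of all genes in the same settings. The count at least 1.5-fold higher was 4; it was 7 of 79 with the floor at the 25th percentile, 8 of 97 with no floor and 2 of 16 by second brightest probe sets, against 13.0%, 17.4% and 19.4% of all genes. In these settings the number of genes measured changed by construction, and a higher floor also left out genes with a low signal in 1 pool. The median of -0.42 was -0.14 with the floor at the 60th percentile, -0.64 with no floor, -0.54 with quantile normalization and -0.10 by second brightest probe sets, against -0.01, -0.14, -0.11 and -0.01 over all genes in the same settings. Leaving out the first chromosome 17 group, an alternative chosen after seeing the data, gave a median of -0.26. No centring, loess, the median of all measured probe sets and leaving out suffixed probe sets gave 23 to 27 lower, 4 or 5 higher and medians from -0.44 to -0.34. By second brightest probe sets, Zfp719 (0.40), Zfp788 (0.07), Zfp800 (-1.03) and Zfp830 (0.03) changed sign; the cause was not tested. The other 26 of the 30 genes at least 1.5-fold apart kept their sign wherever they were measured. Among these 26, only Zfp771, Zfp825, Zfp827, Zfp930 and Zfp949 had a second measured probe set. The sign of the rest could change only through the floor or the scaling, so that it was kept says little about them. No paired analysis was possible because each group has 1 array. Of the 66 measured genes, 12 had a geometric mean signal within 2-fold of the floor.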

Other observations

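Other families of zinc finger genes gave the following counts by the same 1.5-fold limit. Of 30 measured Zbtb genes, which pair zinc fingers with a BTB domain, 3 counted as lower in the knockout-labelled pool and 7 (23.3%) as higher, and the median log2 ratio was 0.13. Of 15 measured Zscan and Zkscan genes, whose proteins carry a SCAN domain, 3 counted as lower and 1 as higher, and the median was -0.06. Both families are small, 18.2% and 12.5% of all measured genes passed the same limits, and no difference between families was tested.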
